A study of Rattus norvegicus with 20 samples.

Results

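Described here are 6 genes of renal glutamine metabolism and glucose synthesis, measured in whole kidneys of rats given cyclosporine A or tacrolimus: Glul, Glud1, Slc38a3, Pck1, Fbp1 and G6pc. A gene entered if either deposited table gave it one of these symbols, and it was carried to the other table by its identifier. The 6 symbols correspond to 7 gene identifiers, among 32545 genes in the cyclosporine A table and 32883 in the tacrolimus table. Glul was chosen by its measured response, having been seen to differ between the 2 drugs, so its changes are given as a description, with no test. The extra identifier, ENSRNOG00000051344, is named G6pc in the cyclosporine A table and Psme3 in the tacrolimus table, and its values are kept apart from those of G6pc.

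All animals were wild-type male Wistar rats of 10 to 12 weeks, treated for 28 days through an osmotic minipump under the skin. Cyclosporine A (CSA, n = 4) was set against its saline vehicle (n = 4). Tacrolimus (TAC, n = 6, aimed at a trough level of 3.5 ng/ml) was set against a vehicle made of 75% polyethylene glycol and 25% DMSO (DMSO/PEG, n = 6). Both drugs inhibit calcineurin, a phosphatase that activates the transcription factors of the NFAT family, and both are given to prevent rejection of transplants. The vehicles differ between the drugs and so do the tables, which were normalized separately, so the effects of drug, vehicle and table cannot be told apart across them. The labels number the replicates without saying that each came from its own rat, so p-values measure the spread between these libraries.

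The proximal tubule takes up glutamine and removes its amide and amino nitrogen as ammonium, which is excreted with acid, and the remaining carbon can be turned into bicarbonate and glucose. SLC38A3 (SNAT3) carries glutamine across the basolateral membrane, its amide nitrogen is split off in the mitochondria, and glutamate dehydrogenase (Glud1) releases the amino nitrogen. Glutamine synthetase (Glul) runs the opposite way and joins ammonia to glutamate, which lowers the net ammonium output. Phosphoenolpyruvate carboxykinase (Pck1), fructose-1,6-bisphosphatase (Fbp1) and the catalytic subunit of glucose-6-phosphatase (G6pc) catalyse the steps particular to glucose synthesis. Kidney and liver are the chief organs that carry out the last of these steps. In metabolic acidosis Slc38a3 and Pck1 are known to be induced in the proximal tubule while Glul is lowered.

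RefSeq promoter windows of the GRCr8 assembly, reaching from 250 bases before to 50 bases after a gene's start, were found for 5 of the 6 symbols, and no window was found for Slc38a3. Those of Pck1 and G6pc (listed there as G6pc1), the first and last steps particular to glucose synthesis, are shown with the 2 windows of Glul, the gene whose response chose it. Capitals mark the letters of 3 motifs searched on both strands: TGACG, the half-site of the cAMP response element, GGAAA, the core of NFAT sites, and GTTAAT, a core of HNF1 sites. The full element TGACGTCA was searched too and contains the half-site. The windows lie on the forward strand at chr3:182348322-182348621 (Pck1), chr10:86807409-86807708 (G6pc), chr13:68519250-68519549 (Glul, first start) and chr13:68575816-68576115 (Glul, second start).
Pck1: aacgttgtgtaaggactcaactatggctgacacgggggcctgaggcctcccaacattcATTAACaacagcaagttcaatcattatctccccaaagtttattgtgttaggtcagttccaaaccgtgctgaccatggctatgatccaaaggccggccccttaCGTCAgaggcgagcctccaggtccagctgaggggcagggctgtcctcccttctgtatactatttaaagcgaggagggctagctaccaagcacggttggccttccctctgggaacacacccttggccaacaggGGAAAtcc
G6pc: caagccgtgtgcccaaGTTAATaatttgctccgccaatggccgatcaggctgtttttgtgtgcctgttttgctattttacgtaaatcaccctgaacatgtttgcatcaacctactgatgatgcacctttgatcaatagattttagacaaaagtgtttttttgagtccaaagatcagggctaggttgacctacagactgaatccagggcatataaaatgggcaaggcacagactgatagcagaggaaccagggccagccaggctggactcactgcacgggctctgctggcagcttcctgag
Glul, first start: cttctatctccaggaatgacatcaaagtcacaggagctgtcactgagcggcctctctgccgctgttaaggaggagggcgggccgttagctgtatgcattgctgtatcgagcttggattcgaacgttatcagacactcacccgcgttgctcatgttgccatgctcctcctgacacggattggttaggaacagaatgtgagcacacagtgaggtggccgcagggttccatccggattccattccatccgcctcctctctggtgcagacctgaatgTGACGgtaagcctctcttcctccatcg
Glul, second start: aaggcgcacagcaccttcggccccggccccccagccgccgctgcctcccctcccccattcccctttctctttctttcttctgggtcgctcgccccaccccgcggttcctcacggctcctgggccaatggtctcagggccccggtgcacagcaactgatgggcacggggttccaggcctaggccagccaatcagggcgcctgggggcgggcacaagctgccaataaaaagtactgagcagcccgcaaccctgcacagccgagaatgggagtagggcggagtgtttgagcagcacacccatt
The Pck1 window held the half-site on the reverse strand at −90 to −86, the HNF1 core on the reverse strand at −192 to −187 and the NFAT core at 42 to 46, counted from the start. In the G6pc window the HNF1 core stood at −234 to −229. The window at the first Glul start held the half-site at 23 to 27, and none of the 4 motifs occurred at the second. The Glud1 window held none of the 4 either, and that of Fbp1 held the NFAT core on the reverse strand at 37 to 41. Of all 33469 rat windows, 21.2% held the half-site, 62.7% the NFAT core, 7.45% the HNF1 core and 1.83% the full element. Such matches describe letters and do not show that a factor binds.

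Assigned fragments per library numbered 30468769 to 34308899 for saline and cyclosporine A, and 31670202 to 39358485 for DMSO/PEG and tacrolimus. Mitochondrial genes took 59.8% ± 7.97 (SD, n = 4) of the fragments with saline and 84.7% ± 4.68 (SD, n = 4) with cyclosporine A (2-sided exact permutation p = 0.0286, which is as small as 4 against 4 can give). With DMSO/PEG and tacrolimus these shares were 11.9% ± 1.13 and 12.4% ± 1.88 (SD, n = 6 each, exact permutation p = 0.606). The cyclosporine A table was deposited as FPKM (fragments scaled by gene length and library depth) relative to all assigned fragments, on which 81.1% of tested genes were called changed and the median gene stood at −0.89 on the log2 scale. Its values are therefore given as FPKM rescaled with median-of-ratios size factors ("rescaled FPKM"), and the deposited values stand beside them. Differences are of log2(FPKM + 1), drug minus its own vehicle, tested with limma, and a gene was called changed at a Benjamini-Hochberg adjusted p under 0.05 over all genes tested.

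Glul was lower with cyclosporine A, in ranges that did not overlap, and the ranges overlapped with tacrolimus. In the saline libraries Glul (ENSRNOG00000049560, chromosome 13, 71331052 to 71340229) stood at 271, 292, 319.9 and 292 rescaled FPKM. In the cyclosporine A libraries it stood at 176, 185, 149.6 and 148. Every cyclosporine A library was thus below every saline library, and the 4 saline values lay within a ratio of 1.18. The description of this difference is a log2 change of −0.83. On the deposited scale the saline values were 546, 369, 489 and 502 FPKM and the cyclosporine A values 110.2, 153, 112 and 63.5, a log2 change of −2.16, and the ranges were separate there too. Among all 13455 genes tested on rescaled values, 6.11% had every cyclosporine A library below every saline library, and nothing is read from this for Glul, whose response chose it.

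With DMSO/PEG, Glul ranged from 946 to 1205 FPKM with a median of 1085. With tacrolimus it ranged from 1070.2 to 1269 with a median of 1167. The lowest 3 libraries of the 12 were DMSO/PEG and the highest pair were tacrolimus, and the other 7 lay between 1070.2 and 1205. The difference of the group means was 0.12 on the log2 scale, given without a test. Set side by side, the change with cyclosporine A was lower than that with tacrolimus by 0.96 on the log2 scale, which is the contrast that chose it.

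**Figure D1:**
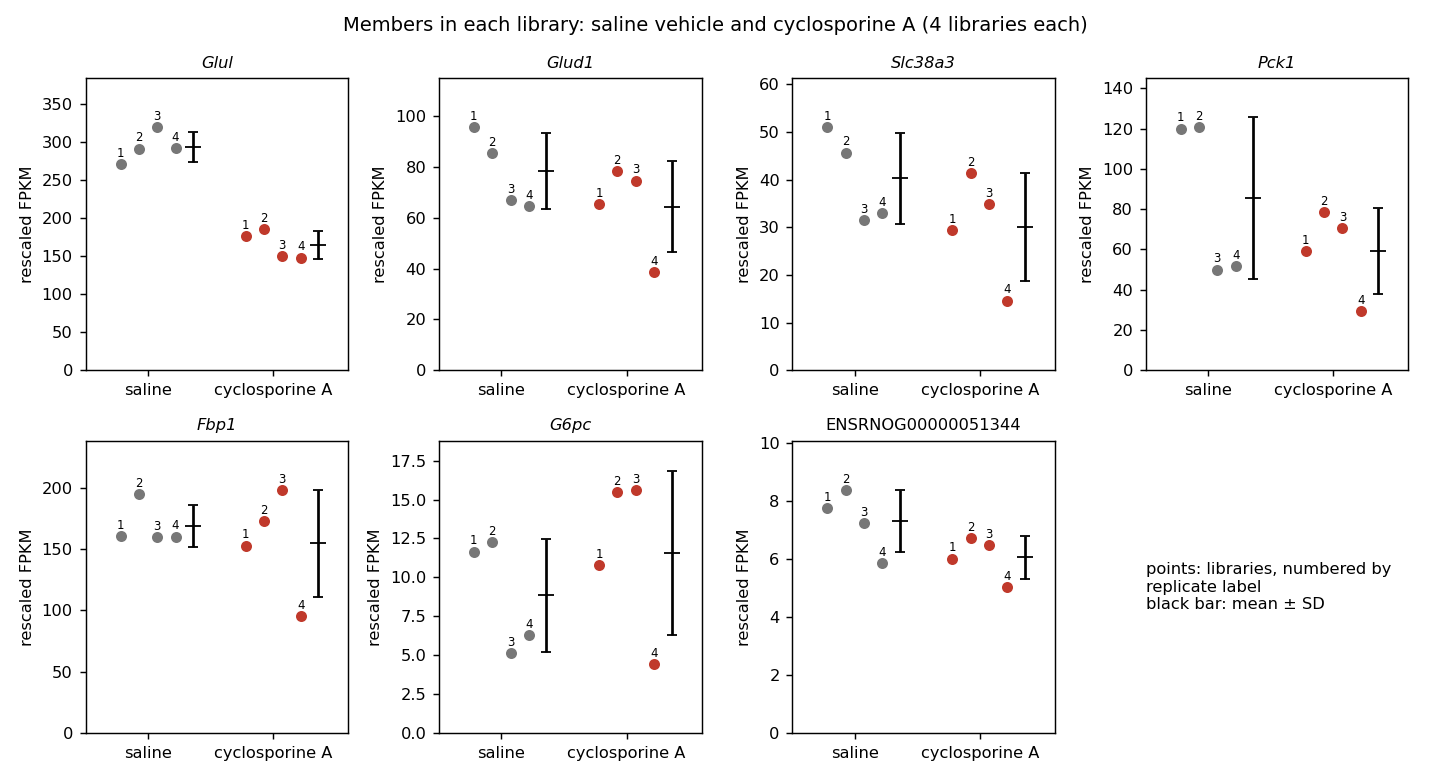
Level of each gene in rescaled FPKM (vertical axes, starting at 0) in the 4 saline (grey) and 4 cyclosporine A (red) libraries, numbered by replicate label. Black bars are the mean ± SD. Only the panel for Glul has separate groups, from 271 to 319.9 with saline and from 148 to 185 with cyclosporine A. Cyclosporine A replicate 4 is the lowest point in all 7 panels.

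The other members showed no called change with either drug. With cyclosporine A on rescaled values, limma called 0 of the 6 other identifiers, where 0.609% of the 13455 genes tested were called. None of the 6 had an unadjusted p under 0.05, against 16.2% of all genes, and voom with quality weights called 0 of 6 as well (2.09% of all genes). In all 6 the saline and cyclosporine A libraries overlapped, where they were separate for 6.11% of all genes with the drug lower and 4.81% with it higher.

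Glutamine uptake comes first in the pathway. Slc38a3 (ENSRNOG00000016827, chromosome 8, 116406241 to 116422366) stood at 51.0, 45.7, 31.5 and 32.9 rescaled FPKM with saline and at 29.4, 41.4, 34.8 and 14.6 with cyclosporine A. Saline replicates 1 and 2 were the highest of the 8 libraries, together with cyclosporine A replicate 2, and cyclosporine A replicate 4 was the lowest. Its log2 change was −0.47 with a standard error of 0.29 (95% interval −1.12 to 0.17, limma adjusted p = 0.46). With tacrolimus Slc38a3 ran from 52.4 to 70.0 FPKM (median 64.7), against 51.8 to 70.3 (median 60.1) with DMSO/PEG. These ranges nearly coincide, and the log2 change was 0.07 (95% interval −0.12 to 0.25, limma adjusted p = 0.91).

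Glud1 (ENSRNOG00000057367, chromosome 16, 10662021 to 10695557) encodes the mitochondrial enzyme that turns glutamate into 2-oxoglutarate and ammonium. Its saline values were 95.7, 85.6, 66.9 and 64.6 rescaled FPKM and its cyclosporine A values 65.5, 78.5, 74.6 and 38.7. Saline replicates 1 and 2 were again high, and 3 of the 4 cyclosporine A libraries lay within the saline range. The log2 change was −0.31 with a standard error of 0.22 (95% interval −0.81 to 0.19, limma adjusted p = 0.54). In the tacrolimus table Glud1 ran from 233 to 319 FPKM (median 265) with DMSO/PEG and from 249.9 to 337 (median 286) with tacrolimus. Tacrolimus replicates 3 and 6 were above every vehicle library, and the log2 change was 0.12 (95% interval −0.08 to 0.32, limma adjusted p = 0.81).

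Among the members Pck1 varied most between libraries in 3 of the 4 groups, all but cyclosporine A. This enzyme makes phosphoenolpyruvate from oxaloacetate and is the regulated entry into glucose synthesis. Pck1 (ENSRNOG00000028616, chromosome 3, 171213936 to 171219871) stood at 119.9, 121, 49.96 and 51.6 rescaled FPKM in saline replicates 1 to 4. The cyclosporine A values were 59.1, 78.3, 70.6 and 29.5. The saline libraries thus formed a high and a low pair, and 3 cyclosporine A libraries fell in the gap between them. The log2 change was −0.48 with a standard error of 0.38 (95% interval −1.32 to 0.36, limma adjusted p = 0.58). The coefficient of variation was 46.9% with saline, while that of Glul in the same libraries was 6.81%.

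With DMSO/PEG, Pck1 ran from 885 to 2047 FPKM with a median of 1308, and with tacrolimus from 939 to 1545 with a median of 1155. The highest values were those of DMSO/PEG replicates 5 and 1, at 2047 and 1614, and the lowest that of DMSO/PEG replicate 4. The tacrolimus values lay inside the vehicle range, and the log2 change was −0.17 (95% interval −0.58 to 0.24, limma adjusted p = 0.89). With 1 library left out it ran from −0.28 to −0.037. Pck1 is also made by adipocytes, where it supplies glycerol. The summed level of 7 adipocyte markers ran from 94.9 to 294 FPKM with DMSO/PEG and from 51.9 to 157 with tacrolimus, and limma called 2 of the 7 lower, Ucp1 (15.1 against 0.619, adjusted p = 8.4e-04) and Cidea (10.3 against 3.28, adjusted p = 0.029). Their part in the Pck1 values was not tested. Hepatocytes also express these genes, and 4 of their markers summed to at most 1.25 FPKM in every library, with Alb and Apob at 0 in all cyclosporine A libraries.

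Fbp1 (ENSRNOG00000017597, chromosome 17, 396180 to 417480) removes a phosphate from fructose 1,6-bisphosphate. Its saline values were 160.3, 195, 159.6 and 160.2 rescaled FPKM, so 3 of the 4 libraries were almost equal. The cyclosporine A values were 153, 173, 198 and 95.5, spread to both sides of the saline values. Fbp1 thus had a log2 change of −0.17 with a standard error of 0.20 (95% interval −0.62 to 0.29, limma adjusted p = 0.74), and it became 0.05 without cyclosporine A replicate 4. With DMSO/PEG Fbp1 ran from 779 to 932 FPKM (median 870.1) and with tacrolimus from 827 to 1049 (median 913). Tacrolimus replicates 3 and 6 were above every vehicle library, as for Glud1. The log2 change was 0.10 (95% interval −0.06 to 0.27, limma adjusted p = 0.79).

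G6pc (ENSRNOG00000051171, chromosome 10, 89285855 to 89296213) releases free glucose in the last step. It stood at 11.7, 12.3, 5.13 and 6.28 rescaled FPKM with saline and at 10.8, 15.5, 15.6 and 4.43 with cyclosporine A. Saline replicates 1 and 2 were above replicates 3 and 4, as for Pck1, while cyclosporine A replicates 2 and 3 were the highest of all. G6pc was the only member with a positive log2 change on this scale, 0.31 with a standard error of 0.38 (95% interval −0.54 to 1.152, limma adjusted p = 0.74). These values rest on 89 to 1192 fragments a library, against 4999 to 46582 for Glul. They also came out as whole fragments only with a length of 1480 bases, where the table lists 2693, so the level of G6pc in this table cannot be compared with that of other genes or with the tacrolimus table.

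In the tacrolimus table G6pc ran from 69.9 to 138 FPKM (median 96.4) with DMSO/PEG and from 90.8 to 141 (median 116) with tacrolimus. The lowest pair were DMSO/PEG replicates 6 and 4, and the upper ends nearly met. The log2 change was 0.24 (95% interval −0.10 to 0.58, limma adjusted p = 0.74). The identifier ENSRNOG00000051344 (chromosome 10, 89236256 to 89244041), which lies next to G6pc, had 5.86 to 8.40 rescaled FPKM with saline and 5.03 to 6.73 with cyclosporine A, a log2 change of −0.23 (limma adjusted p = 0.44). It ran from 16.1 to 20.2 FPKM with DMSO/PEG and from 18.6 to 22.6 with tacrolimus, a log2 change of 0.11 (limma adjusted p = 0.72). The tables disagree on its name, so which gene it measures is uncertain. In the cyclosporine A table it too gave whole fragments only with another length than the one listed (1785 and 2617 bases), so its levels cannot be compared between the tables or with other genes there.

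With tacrolimus limma called 0 of the 6 identifiers other than Glul, where 0.303% of 15493 genes tested were called. None had an unadjusted p under 0.05, against 8.58% of all genes, and voom called 0 of 6 (0.781% of all genes), with 1 of 6 (G6pc) at an unadjusted p of 0.038 (12.6% of all genes). The groups were separate for 0 of the 7 identifiers, and for 0.671% of all genes with tacrolimus lower and 0.303% with it higher.

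**Figure D2:**
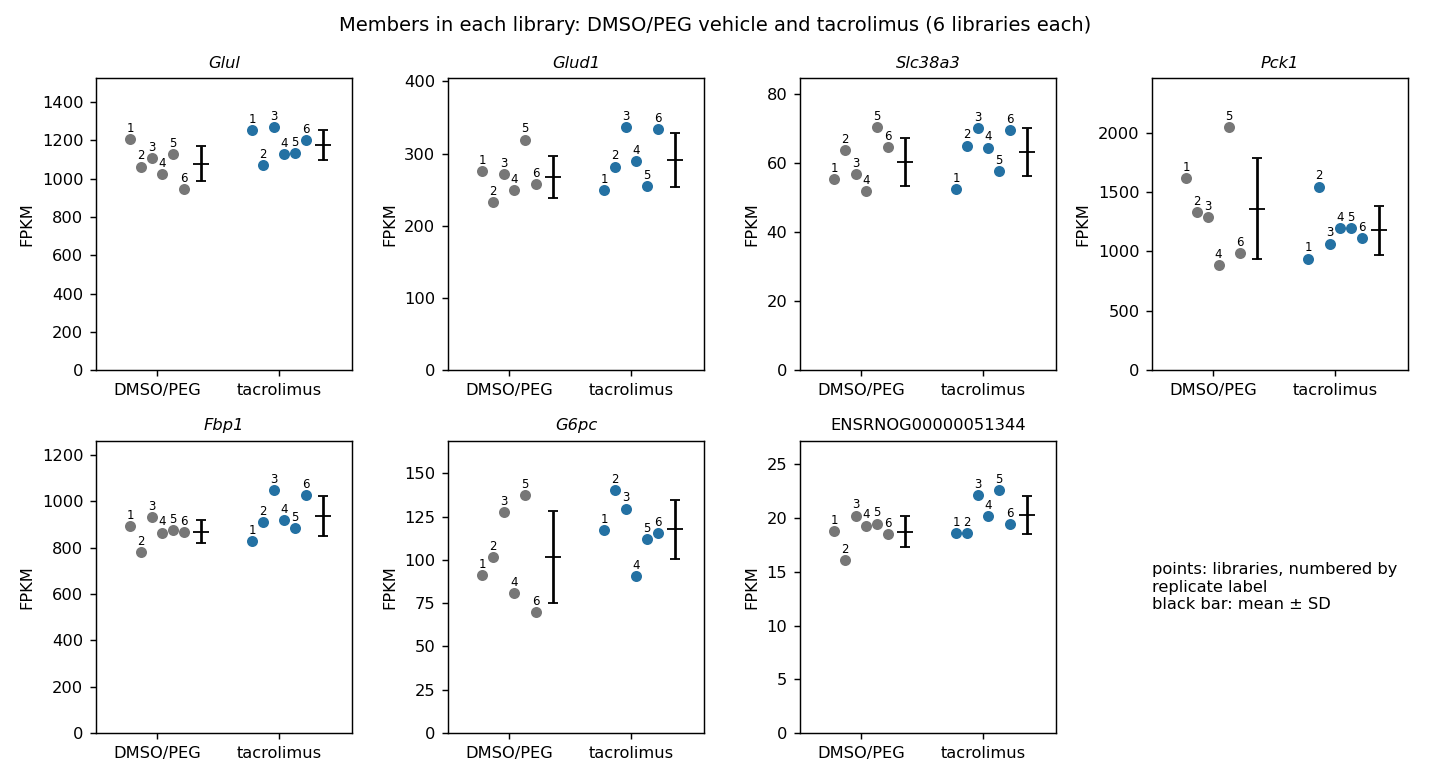
Level of each gene in FPKM as deposited (vertical axes, starting at 0) in the 6 DMSO/PEG (grey) and 6 tacrolimus (blue) libraries, numbered by replicate label, with the mean ± SD in black. The groups overlap in all 7 panels. Pck1 has the widest spread, from 885 to 2047 with DMSO/PEG.

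On FPKM as deposited, every member was lower with cyclosporine A. Glud1 changed by −1.62, Slc38a3 by −1.75, Pck1 by −1.79, Fbp1 by −1.49 and the identifier of uncertain name by −1.37 on the log2 scale, and limma called these 5 (adjusted p from 7.6e-04 to 0.0018). G6pc, at −0.86, was not called (adjusted p = 0.065). The median of all genes was −0.89 on this scale and 80.9% of genes were called lower, so the count is read against that background. The sign of the G6pc change thus depends on the scaling. Glul lay below the median gene by 0.83 on rescaled and by 1.27 on deposited values, a description from which nothing is read.

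**Figure D3:**
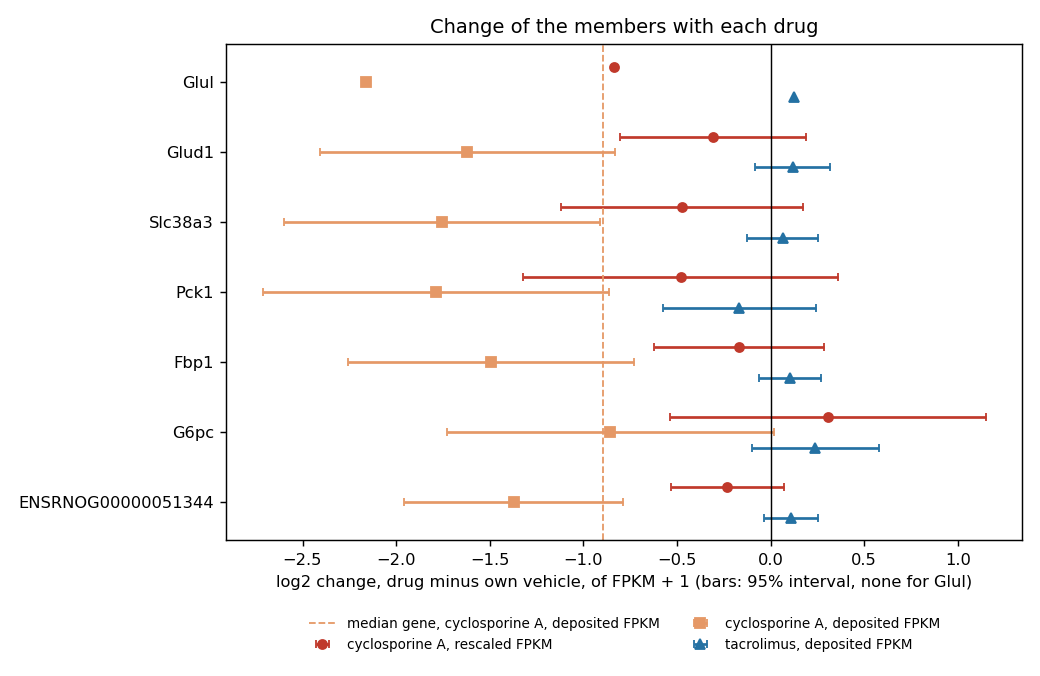
Log2 change of FPKM + 1 (horizontal axis, drug minus its own vehicle) of the 7 identifiers, with 95% intervals for all but Glul. Red circles are cyclosporine A on rescaled FPKM, orange squares cyclosporine A on deposited FPKM, blue triangles tacrolimus, and the dashed line is the median gene at −0.89 for the squares. Glul is drawn without intervals because its response chose it. For the other 6 identifiers the red and blue intervals include 0.

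For the contrast of the drugs, the tacrolimus change was subtracted from the cyclosporine A change. On rescaled values limma called it for 0 of the 6 members other than Glul, where 1.61% of 13392 genes were called. The identifier of uncertain name alone had an unadjusted p under 0.05 (0.040, against 16% of all genes), and voom called 0 of 6 (2.45% of all genes). The differences were −0.43 for Glud1 (95% interval −0.95 to 0.09, limma adjusted p = 0.42), −0.54 for Slc38a3 (−1.20 to 0.12, adjusted p = 0.43) and −0.31 for Pck1 (−1.21 to 0.58, adjusted p = 0.77). For Fbp1 the difference was −0.27 (−0.74 to 0.20, adjusted p = 0.59), and for G6pc it was 0.07 (−0.82 to 0.95, adjusted p = 0.96). Leaving out 1 library at a time moved the differences to between −0.54 and −0.20 for Glud1, −0.72 and −0.24 for Slc38a3, −0.53 and −0.016 for Pck1, −0.41 and −0.058 for Fbp1 and −0.13 and 0.43 for G6pc. For these 5 genes the upper end came without cyclosporine A replicate 4. The intervals are wide, and they do not show that the drugs act alike on these genes. With the cyclosporine A table as deposited, all 6 were called, where 75.2% of all genes were.

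Markers of some nephron segments had separate ranges with saline and cyclosporine A, while those of others overlapped. Summed markers of the proximal straight tubule (S3, 4 genes), a segment rich in glutamine synthetase, ran from 1182 to 1552 rescaled FPKM with saline and from 585 to 1154 with cyclosporine A, and did not overlap. Slc7a13, the most abundant of them, stood at 1063 ± 127 and 664 ± 199 (SD, n = 4 each, log2 change −0.72, limma adjusted p = 0.15), and 0 of the 4 were called. Summed markers of the S1 and S2 segments (7 genes) overlapped, at 173 to 244 and 117 to 276, but Slc34a1, the phosphate carrier, made up most of that sum, with a mean of 128 with saline and 134 with cyclosporine A. Its other genes differed in both directions, and 4 of the 7 had an unadjusted p under 0.05, where 16.2% of all genes did. The endocytic receptors Lrp2 (19.5 to 28.4 and 10.1 to 19.2) and Cubn (4.46 to 5.58 and 2.35 to 3.69) were lower with cyclosporine A in separate ranges, neither called (limma adjusted p = 0.19 and 0.098). The carriers Slc5a2 (0.108 to 0.495 and 0.843 to 1.84) and Slc5a12 (0.0957 to 0.261 and 0.266 to 1.095) were higher in separate ranges at low levels, and limma called Slc5a2 (adjusted p = 0.038) but not Slc5a12 (0.16). Voom called 2 of the 7 higher and 1 lower, where it called 2.09% of all genes. Summed markers of the thick ascending limb (4 genes) did not overlap, at 332 to 591 and 144 to 266. Umod made up most of this sum, with a mean of 323 and 125, and was the 1 of the 4 called by limma (log2 change −1.36, limma adjusted p = 0.049), while Cldn16 stood at 3.32 and 4.02 (log2 change 0.21, adjusted p = 0.51). Voom called 2 of the 4 lower. Separate ranges were also seen for summed urothelial markers (1.62 to 3.84 and 6.75 to 16.0), of which limma called 1 of 3 tested higher and voom 3 of 3 (0.609% and 2.09% of all genes were called either way). The sums of distal convoluted tubule markers were separate as well (52.8 to 77.1 and 24.7 to 33.9). These followed Calb1, the 1 of the 4 genes that limma called, at 54.9 with saline and 14.95 with cyclosporine A, and the median log2 change of the 4 was 0.09. Sums overlapped for principal cells (81.8 to 146 and 91.4 to 194) and intercalated cells (78.4 to 157 and 109 to 208), with 0 of 4 called in each by limma and by voom (2 and 0 at an unadjusted p under 0.05). In whole-kidney RNA, fewer cells of a type and less RNA per cell cannot be told apart. The part of these markers, and of the mitochondrial share, in the Glul values was not tested. With tacrolimus the S3 sums were 1544 to 2118 FPKM against 1485 to 1745 with DMSO/PEG. Distal convoluted tubule sums were 47.8 to 75.9 against 276 to 352, with 4 of 4 markers called lower, and their part in the members' values was not tested.

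A pair of saline libraries was higher than the other pair in several members. Saline replicates 1 and 2 were higher than 3 and 4 in Slc38a3, Glud1, Pck1 and G6pc, and not in Glul. They were higher in the identifier of uncertain name too, by little (7.76 and 8.40 against 7.24 and 5.86). In Fbp1 only replicate 2 was apart from the rest. The mitochondrial shares of replicates 1 and 2, 49.7% and 68.6%, were the lowest and the highest of the 4, and the part of library measures in this was not tested. Cyclosporine A replicate 4, the lowest library for all 7 identifiers, had the highest mitochondrial share, 90.8%, and the fewest nuclear fragments, 2905839. Without it the log2 changes of Glud1, Slc38a3 and Pck1 became −0.09, −0.17 and −0.18, and that of G6pc became 0.67. None of these genes was called without it. The value for Glul was −0.79, and nothing is read from it because the response of Glul chose it.

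**Figure D4:**
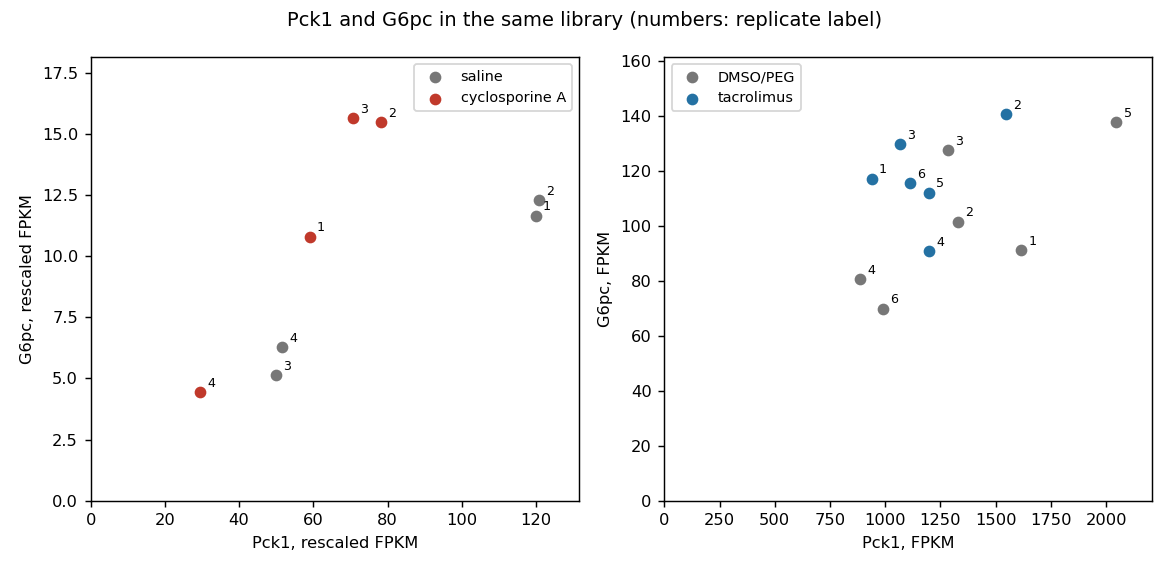
Pck1 (horizontal axes) against G6pc (vertical axes) in the same library, in rescaled FPKM for saline (grey) and cyclosporine A (red) on the left and in FPKM for DMSO/PEG (grey) and tacrolimus (blue) on the right, with replicate numbers. Saline replicates 3 and 4 and cyclosporine A replicate 4 lie at the lower left, at 29.5 to 51.6 for Pck1 and 4.43 to 6.28 for G6pc. On the right DMSO/PEG replicate 5 is high in both, at 2047 and 138.

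Within the 12 libraries of the tacrolimus table, levels of the members were compared in 15 pairs, a comparison added after the values had been seen. Permutations ran over all 12 libraries without regard to group, and other gene pairs were not compared. Glud1 and Fbp1 went together most closely, with Pearson's r = 0.85 (permutation p = 2.4e-04, 0.0036 after adjustment over the 15 pairs) and Spearman's rho = 0.83 (permutation p = 0.0013, adjusted 0.020). Without the 2 libraries farthest from the Glud1 median r was 0.64, and within the groups it was 0.57 with DMSO/PEG and 0.98 with tacrolimus. Glud1 and Slc38a3 had r = 0.70 (permutation p = 0.012, adjusted 0.089) and rho = 0.76 (permutation p = 0.0053, adjusted 0.040), with r = 0.40 and 0.93 within the groups. Pck1 and G6pc had r = 0.47 (permutation p = 0.12, adjusted 0.26). Pck1 and Glul had r = 0.08 over all 12 libraries, from 0.77 with DMSO/PEG and −0.91 with tacrolimus, given as a description because the response of Glul chose it. Slc38a3 and Fbp1 had r = 0.46, from −0.32 with DMSO/PEG and 0.93 with tacrolimus. The differences between these groups were not tested.

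The members differed widely in level. FPKM is scaled by gene length, so levels within a table can be ordered. With saline Glul was highest, at 294 ± 19.99 rescaled FPKM (SD, n = 4), followed by Fbp1 at 169 ± 17.2, and then by Pck1 at 85.6 ± 40.2 and Glud1 at 78.2 ± 14.95, whose ranges overlapped. Slc38a3 came next at 40.3 ± 9.59. With cyclosporine A the ranges of Glul and Fbp1 overlapped, at 165 ± 18.8 and 155 ± 43.7. In the other table Pck1 and Glul led and overlapped, at 1358 ± 426 and 1079 ± 89.4 FPKM (SD, n = 6) with DMSO/PEG and 1177 ± 204 and 1175 ± 78.1 with tacrolimus. Fbp1 followed at 868 ± 50.5 and 935 ± 85.9, then Glud1 at 268 ± 29.6 and 291 ± 37.4, G6pc at 101 ± 26.6 and 118 ± 16.9, and Slc38a3 at 60.4 ± 6.94 and 63.2 ± 6.89. G6pc and Slc38a3 overlapped with DMSO/PEG and did not with tacrolimus.

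The ratio of a member to Glul in the same library does not depend on the scaling between libraries. Glul was chosen by its response and was lower with cyclosporine A, which raises these ratios there, so no change with the drug is read from them. Pck1 stood at 0.156 to 0.442 of Glul with saline and 0.199 to 0.472 with cyclosporine A, against 0.864 to 1.82 with DMSO/PEG and 0.7504 to 1.44 with tacrolimus. The 2 vehicle groups therefore did not overlap in this ratio. Fbp1 stood at 0.499 to 0.667 of Glul with saline and 0.644 to 1.33 with cyclosporine A, ranges that overlap slightly, and at 0.733 to 0.916 and 0.660 to 0.856 in the tacrolimus table. Slc38a3 went the other way between the tables, at 0.0985 to 0.188 of Glul with saline and 0.0459 to 0.0683 with DMSO/PEG. The tables were normalized and counted separately, so these differences between them cannot be told apart from processing.

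For the steps around the members, 4 gene lists were followed. Of 17 tested genes of glutamine and ammonia metabolism, limma called 0 with cyclosporine A and 0 with tacrolimus (4 and 3 at an unadjusted p under 0.05, where 16.2% and 8.58% of all genes were, and 1 and 0 called by voom, where 2.09% and 0.781% were). The median log2 change was 0.05 with cyclosporine A and −0.04 with tacrolimus, beside a median gene at 0.00 in both. The single voom call was Gldc, a subunit of the glycine cleavage system, at 0.690 ± 0.216 with saline and 1.62 ± 0.353 rescaled FPKM with cyclosporine A (SD, n = 4 each, voom log2 change 1.33, adjusted p = 0.022). Of the other neutral amino acid carriers, Slc38a2 had log2 changes of −0.13 and 0.02 and Slc1a5 of −0.06 and −0.09 with cyclosporine A and tacrolimus, none called.

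Of 11 genes of ammonia and bicarbonate transport, limma called 0 with cyclosporine A and 0 with tacrolimus (2 and 2 at an unadjusted p under 0.05, against 16.2% and 8.58% of all genes, 1 and 0 by voom), with medians of −0.06 and 0.04. Of all genes, 0.609% and 0.303% were called by limma and 2.09% and 0.781% by voom. Slc12a1, the sodium-potassium-chloride carrier of the thick ascending limb that also takes up ammonium, stood at 60.0 ± 9.75 with saline and 30.9 ± 6.57 rescaled FPKM with cyclosporine A (SD, n = 4 each). Its change of −0.95 just missed the threshold (limma adjusted p = 0.051) and was called by voom (adjusted p = 0.0083). With tacrolimus its change was −0.12, and the difference between the drugs, −0.83 (95% interval −1.24 to −0.42, limma adjusted p = 0.048), was called. That call was lost without saline replicate 1, 3 or 4, cyclosporine A replicate 1, 2 or 4, DMSO/PEG replicate 2 or 3, or tacrolimus replicate 1 or 2 (adjusted p from 0.051 to 0.146). It was also lost with a pseudocount of 0.1 (adjusted p = 0.051), with no filter on low genes (0.088) and with the replicate label as a block (0.081). Slc12a1 is also one of the thick ascending limb markers above. Rhcg, the ammonia channel of the collecting duct, had log2 changes of 0.19 and 0.09, and Slc9a3, the sodium-proton exchanger NHE3, of −0.24 and −0.14, none called. On deposited values the Rhcg change with cyclosporine A was −1.11.

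Of 32 genes of gluconeogenesis and its carbon supply, limma called 0 with cyclosporine A and 1 with tacrolimus (6 and 2 at an unadjusted p under 0.05, against 16.2% and 8.58% of all genes, 0 and 1 by voom), with medians of −0.10 and −0.08. Of all genes, 0.609% and 0.303% were called by limma and 2.09% and 0.781% by voom. The 1 gene called by limma was Hk2, a hexokinase of glycolysis, which fell from 1.97 ± 0.450 to 1.06 ± 0.0925 FPKM with tacrolimus (SD, n = 6 each, log2 change −0.52, limma adjusted p = 0.022) with separate ranges. This call was lost without DMSO/PEG replicate 2 or 4 or tacrolimus replicate 1, 4 or 5 (adjusted p from 0.053 to 0.068). It was also lost with the replicate label as a block (limma adjusted p = 0.066). Next to the members, Pc, which supplies oxaloacetate, had log2 changes of −0.18 and −0.05 with cyclosporine A and tacrolimus, and Pck2, the mitochondrial carboxykinase, of −0.20 and 0.05. For Slc37a4, the glucose-6-phosphate transporter, they were −0.16 and 0.11, and for G6pc3, a widely expressed relative of G6pc, −0.20 and 0.05. For Fbp2, the muscle form of Fbp1, they were 0.21 and −0.30. None of these 10 changes was called (limma adjusted p from 0.37 to 0.93). Between the drugs Ldhb, the heart-type lactate dehydrogenase subunit, differed by 0.55 (limma adjusted p = 0.039) and Hk2 by 0.46 (adjusted p = 0.041). The Ldhb call was lost without any 1 of the 4 saline libraries, cyclosporine A replicate 1 or 2 or tacrolimus replicate 2 (adjusted p from 0.051 to 0.110). With the replicate label as a block the Ldhb call was lost too (limma adjusted p = 0.060), and on deposited values the difference was −0.77. The Hk2 difference was lost without any 1 of the saline libraries, cyclosporine A replicate 1, DMSO/PEG replicate 2 or 4 or any tacrolimus library but replicate 2 (adjusted p from 0.052 to 0.122). It was not called by voom (adjusted p = 0.565), with a pseudocount of 0.1 (0.354), with the replicate label as a block (0.072) or on deposited values (0.159).

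Of 24 regulators of glucose synthesis and of the acidosis response, limma called 0 with either drug (2 and 4 at an unadjusted p under 0.05, against 16.2% and 8.58% of all genes, 0 and 0 by voom), with medians of −0.12 and 0.00. Hnf4a, a nuclear receptor that sustains proximal tubule genes, stood at 51.4 ± 4.63 with saline and 40.7 ± 9.53 rescaled FPKM with cyclosporine A (SD, n = 4 each, log2 change −0.36, limma adjusted p = 0.35), and its log2 change with tacrolimus was 0.06. Foxo1, an insulin-restrained activator of Pck1 and G6pc, had log2 changes of −0.20 and −0.02. The coactivator Ppargc1a had a log2 change of 0.35 with cyclosporine A (−0.54 on deposited values) and of −0.33 with tacrolimus, none called (limma adjusted p = 0.43 and 0.41).

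**Figure D5:**
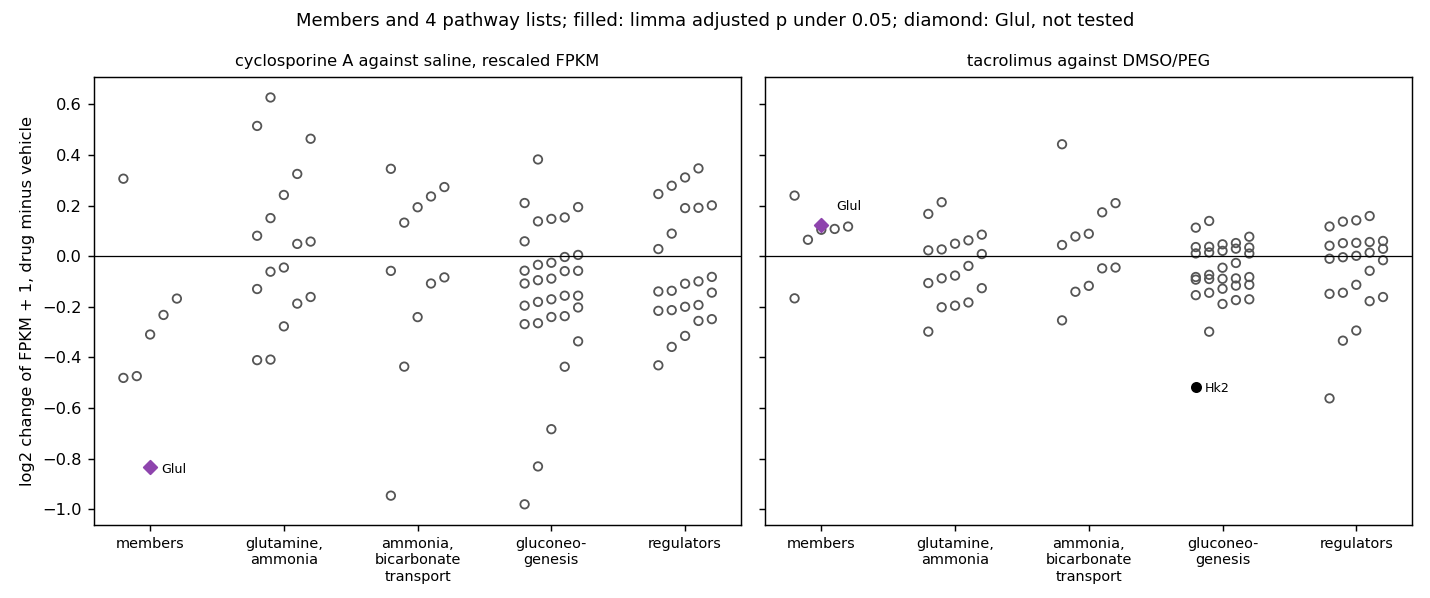
Log2 change of FPKM + 1 (vertical axis) of each tested gene, by list along the horizontal axis, for cyclosporine A on rescaled FPKM (left) and tacrolimus (right). Open circles were not called, filled circles were, and the diamond is Glul, which was not tested. Hk2 at −0.52 on the right is the single filled point.

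By likeness over the 20 libraries, each value centred on its own vehicle mean, the genes nearest to Glul among 4376 compared were Tomm70, Sipa1l1 and Gss, with root mean square log2 differences of 0.142, 0.149 and 0.151 against 0.412 for the median gene. Gss (glutathione synthetase) had log2 changes of −0.88 and 0.08 for the 2 drugs, and Tomm70, a receptor of the mitochondrial import machinery, of −0.68 and 0.08. Nearest to Glud1 were Lrrc8d and Ddah1 (0.0929 and 0.0983), and nearest to Slc38a3 were Lrrc8d, Mcoln1 and Slc27a2 (0.129 to 0.140). Nearest to Fbp1 were Erp44 and RGD735065 (0.0946 and 0.107). Pck1 had no close neighbour, with Agt, Cidec and Alpl at 0.269 to 0.278, and G6pc had Paqr7, Eci1 and Slc22a8 at 0.242 to 0.262. These likenesses are descriptions over libraries that share their tables and scaling.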

How the data were processed

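Bulk RNA sequencing libraries of whole rat kidney (20 samples) were compared within 2 tables of FPKM deposited by the authors, 1 per drug. Total RNA (1 µg a sample) was made into libraries with an NEBNext kit, per the labels' protocols, and HISAT2 and the rn6 build are listed, with no role given, per the submitters' processing notes. The counting program, annotation release and strand setting are not given in the sources used here, so antisense partners cannot be separated. Gene positions are those of the tables.

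Whole fragments behind the deposited FPKM were recovered (tolerance 0.001). With the listed lengths 100% of the tacrolimus table's values were whole and 74.1% of the cyclosporine A table's, where 4445 of 18892 detected genes needed a shorter length. The former follows median-of-ratios size factors and the latter the total of assigned fragments, so the latter was rescaled with such factors (rescaled FPKM). No value column was left without a sample (0 unused).

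Log2(FPKM + 1) was fitted with limma 3.58.1 in R 4.3.3 (group as the only term, trend, Benjamini-Hochberg adjustment). Genes entered the test with 15 or more fragments in all and a depth-adjusted 10 or more in a number of libraries no lower than the smaller group size. Differences on this scale understate changes of low genes. The 2 drug changes were subtracted with Satterthwaite degrees of freedom, and intervals are 95%. The deposited unit is FPKM, and the main fit used it without a count model. The alternatives were the deposited scale, TMM factors, pseudocounts of 0.1 and 5, no filter, voom with quality weights on recovered fragments, a replicate block and each library left out. The fit was tested on simulated data. Libraries of a group differed by more than sampling noise (chi-square per degree of freedom at least 16.7), so none was counted as a copy.

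The members and lists were chosen with earlier results of these data known. Named genes are the members, list genes called at an adjusted p under 0.05 (up to 5 each way), 12 genes at neighbouring steps, and up to 3 genes nearest each member (mean of at least 5 FPKM in both tables). Gldc, Slc12a1 with cyclosporine A and the single marker genes were named after their values were seen. Of the lists, Aldh4a1 and Pecam1 found no match and Aldh18a1 was ambiguous. Not tested were Slc25a22 in both tables, the markers Lep, Ucp1, Upk2, Cd3e, Alb and Apob in the cyclosporine A table and Apoa1 and Serpina1 in both. Of the 6 symbols, 5 matched RefSeq promoter windows (GRCr8). Results of some genes that this rule names are not reported here.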

Additional observations from a re-analysis of the deposited data

Results flagged for a closer look

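Fbp1 in saline replicate 2, at 195 rescaled FPKM, stood far from the other 3 saline libraries, the next of which was at 160.3, so that the gap took up 0.981 of the group's range (Dixon's 95% limit is 0.829 for 4 samples). It was the 1 such case among 32 groups tested, and chance gives about 1 in 20.

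Between the drugs, 3 genes of the pathway lists differed by the test of the difference itself, cyclosporine A change minus tacrolimus change on rescaled values. The 4 lists held 17, 11, 32 and 24 tested genes, and 1.61% of all 13392 genes were called. Slc12a1 differed by −0.83, Ldhb by 0.55 and Hk2 by 0.46 on the log2 scale (limma adjusted p = 0.048, 0.039 and 0.041). Of the 20 libraries, leaving out 1 in turn lost the call of Slc12a1 for 10, of Ldhb for 7 and of Hk2 for 12. That of Slc12a1 was also lost with a pseudocount of 0.1 (limma adjusted p = 0.051) and with no filter (0.088), and that of Hk2 with a pseudocount of 0.1 (0.354), with voom (0.565) and on deposited values (0.159). The replicate label as a block lost the calls of Slc12a1, Ldhb and Hk2 (limma adjusted p = 0.081, 0.060 and 0.072). On deposited values the Ldhb difference turned to −0.77. For Slc12a1 the saline and cyclosporine A ranges were separate (45.7 to 67.0 and 22.6 to 37.0), as were those for Ldhb (77.2 to 97.6 and 110.1 to 121). For Hk2 the separate ranges were those of DMSO/PEG and tacrolimus (1.58 to 2.81 and 0.956 to 1.21).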

How the results depend on the processing

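With cyclosporine A 82 genes were called on rescaled values, and 10911 on deposited values, 281 with voom, 1 with no filter, 6 with the replicate block and 1 to 139 with a library left out (1 without saline replicate 4, 3 without saline replicate 3, 139 without cyclosporine A replicate 4). Of the 6 members other than Glul 5 were called on deposited values and 0 in the other alternatives. With tacrolimus 47 genes were called, 121 with voom and 37 to 50 with a library left out. The difference between the drugs was called for 216 genes, 10068 on deposited values (6 of them members other than Glul), 328 with voom, 135 with no filter and 27 to 267 with a library left out (27 without saline replicate 4). The Glul change with cyclosporine A ran from −0.89 to −0.79 over the left-out libraries, a description only, since its response chose it.

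On deposited values the sign turned for G6pc (−0.86, and −1.10 for its difference between the drugs), Rhcg (−1.11), Fbp2 (−0.16), Ppargc1a (−0.54) and the Ldhb difference (−0.77), each by the scaling alone. With voom it turned for Slc1a5 with cyclosporine A (0.040) and Slc38a2 with tacrolimus (−0.055). A left-out library turned the sign of changes near 0. With cyclosporine A the ranges were −0.30 to 0.047 for Fbp1, −0.28 to 0.023 for Slc38a2, −0.15 to 0.043 for Slc1a5, −0.36 to 0.10 for Pc, −0.49 to 0.015 for Pck2 and −0.32 to 0.058 for Slc37a4. With tacrolimus they were −0.039 to 0.083 for Slc38a2 and −0.070 to 0.040 for Foxo1, and the G6pc difference ran from −0.13 to 0.43.

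Same-numbered libraries did not deviate together throughout (correlations from −0.15 to 0.21), so the numbers were not taken as pairs. The replicate block lost the call of Hk2 with tacrolimus (adjusted p = 0.066) and the differences of Slc12a1, Ldhb and Hk2 (adjusted p = 0.081, 0.060 and 0.072). Depth limits G6pc and the identifier of uncertain name most, with 89 to 626 and 122 to 328 fragments in the cyclosporine A libraries. The fewest, 89, were those of G6pc in replicate 4.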

Other observations

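Some markers of the proximal convoluted tubule, the segment where ammonia production is greatest, were close to 0 in the cyclosporine A table. Slc5a2, the glucose carrier SGLT2 of that segment, stood at 0.108 to 0.495 rescaled FPKM with saline and 0.843 to 1.84 with cyclosporine A, where the DMSO/PEG libraries held 132 to 161 FPKM. Slc5a12, a lactate carrier, stood at 0.0957 to 0.261 and 0.266 to 1.10, against 52.1 to 80.2 with DMSO/PEG. Slc34a1, the phosphate carrier NaPi-IIa, stood at 128 ± 25.9 (SD, n = 4) with saline and 1537 ± 57.4 (SD, n = 6) with DMSO/PEG. In these groups Slc4a4 had means of 0.354 and 114, Hnf4a of 51.4 and 182, Lrp2 of 23.5 and 172 and Cubn of 4.95 and 40.6. Low values were not particular to this segment. Mean marker sums were 3.69 with saline and 87.8 with DMSO/PEG for podocytes, 3.47 and 24.6 for leukocytes and 26.4 and 155 for endothelium. They were 444 and 2330 for the thick ascending limb, and 126 and 128 for intercalated cells. Among the 4 straight tubule markers, Slc7a13 stood at 1063 ± 127 and 1125 ± 92.7, Slc22a7 at 4.19 ± 1.29 and 4.15 ± 0.984, Acy3 at 293 and 514 and Slc5a1 at 2.81 and 10.6 with saline and DMSO/PEG. Gldc followed the first pattern, at 0.690 ± 0.216 with saline and 23.4 ± 8.35 with DMSO/PEG. The tables were normalized separately, and the lengths behind 23.5% of the detected genes in the cyclosporine A table differ from those listed, so the part of processing in these levels was not tested. Rescaled FPKM is also relative to a total that includes mitochondrial fragments, which were 59.8% with saline and 11.9% with DMSO/PEG. Nuclear genes are thereby placed lower in the cyclosporine A table. Like values in the 2 tables therefore do not mean like levels.

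Among the genes listed, 7 of 7 S1 and S2 markers were above 0 in every library. Slc5a2 was called higher with cyclosporine A (log2 change 0.93, limma adjusted p = 0.038), from a level at which the saline libraries reached at most 0.495 FPKM.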
